A study of Ovis aries with 5 samples.

Results

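The PANK2 sweep region is the highest-ranked stretch of the sheep genome among those in which the study looked for selection during domestication. It spans 340 kb of chromosome 13, from 50310001 to 50650000 (Oar_v3.1). All ChIP-Seq peaks and joint regions that overlapped this stretch or the 100 kb on each side of it, from 50210001 to 50750000, were taken as its members. The 540 kb window held 73 of 296523 entries over all lists, of which 55 were peaks of single libraries (of 213217) and 18 were rows of the joint lists (of 83306). No ChIP-Seq value entered the rule for the window.

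The tissue was perirenal fat, the fat around the kidney, of pure bred merino sheep fetuses of wild type genotype, taken at day 132 of gestation by the sample labels (term is at day 150), with no treatment. The methods of the study give a slightly earlier age. H3K4me3 and H3K27ac were each measured in 2 libraries, 1 per fetus, and the same 2 fetuses gave both marks, so replicate 1 and replicate 2 name the same animals throughout. A further animal that the methods name for H3K4me3 was not analysed here. A single input library of nucleosomal DNA pooled over the fetuses served as the control. H3K27me3 was available as a joint list of positions alone.

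PANK2 encodes pantothenate kinase 2, which phosphorylates pantothenate (vitamin B5) in the first and rate-controlling step of coenzyme A synthesis, and its loss in humans causes a neurodegeneration with iron accumulation in the brain. RNF24, the other gene that the study names in the region, encodes a membrane protein with a RING finger. H3K4me3 marks active promoters, H3K27ac marks active promoters and active enhancers, and H3K27me3 is laid down by Polycomb complexes at silenced genes. Perirenal fat of the late gestation fetus is rich in brown adipocytes, which burn fatty acids, activated by coenzyme A, to make heat. In the gene order of another sheep assembly (ARS-UI_Ramb_v3.0), RNF24 and PANK2 are neighbours, with SMOX, a spermine oxidase, before RNF24, and MAVS, an adaptor of antiviral signalling, after PANK2. Gene positions on Oar_v3.1 were not used here, so no region is assigned to a gene's start, and neither the fat markers nor the other genes of coenzyme A synthesis could be looked up.

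The sweep region carried 4 H3K4me3 regions, 3 H3K27ac regions and 1 H3K27me3 region found jointly in both libraries of a mark. At 1 of these places, from 50498905 to 50501542, the promoter mark H3K4me3 lay wholly within an H3K27ac region, and the other places in the sweep region carried 1 joint mark each. The flank after the sweep region was denser in both active marks, with 4 H3K4me3 and 3 H3K27ac regions in 100 kb. The flank before it held 1 H3K4me3 region, 2 H3K27me3 regions and no joint H3K27ac region.

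**Figure D1:**
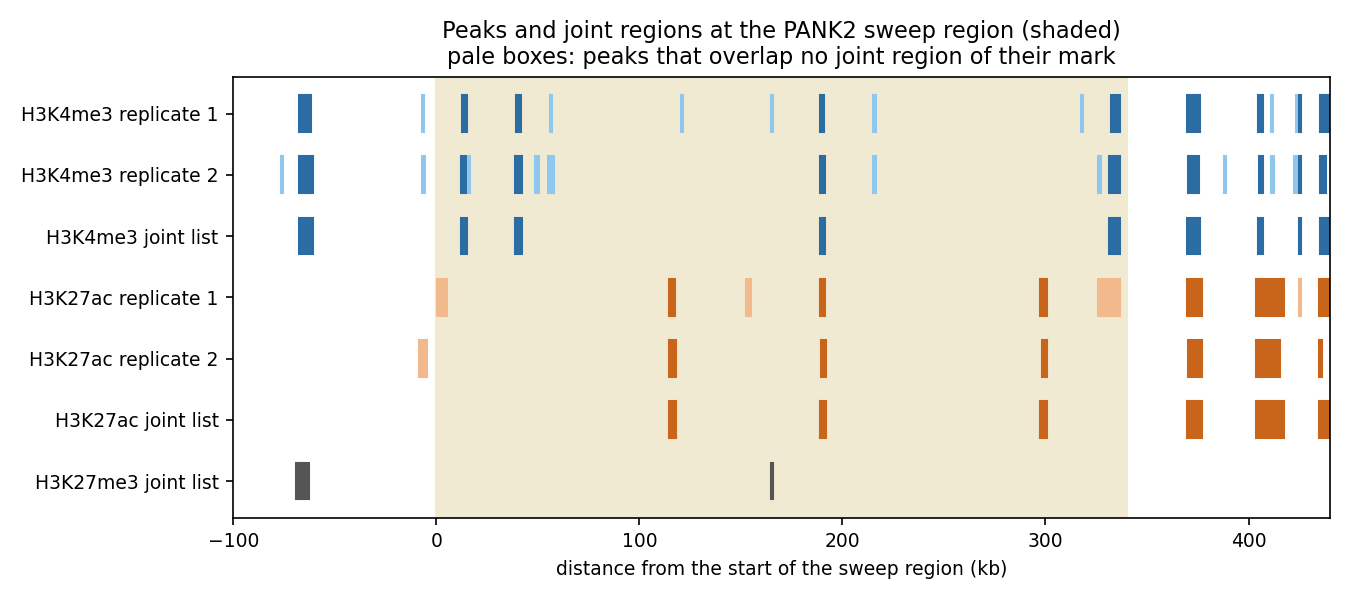
Positions of the peaks of each library and of the joint regions, by distance from the start of the sweep region in kb, with the sweep region shaded and 1 row per list. Dark boxes are joint regions or peaks that overlap one, pale boxes are peaks that overlap no joint region of their mark, and the 3 joint H3K27ac regions in the shaded part stand apart from the block of H3K27ac past its end.

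The depth behind the values was 92882463 and 109652707 tags for H3K4me3 in replicates 1 and 2 after the removal of duplicates, and 144038222 and 145716523 tags for H3K27ac. The input held 26651829 tags. Tags in a peak were divided by the length of that library's own peak and by its deduplicated tags, which gives a tag density in tags per kb per 1000000 tags. The fold enrichment over the input is the authors' own value for each peak, as is the false discovery rate (FDR). A joint region needed overlapping peaks of both libraries at an FDR of at most 1% for H3K4me3 and at most 10% for H3K27ac, the limits that rebuilt the deposited lists. The methods of the study state a stricter limit for each of these marks. The spread between animals is known from a pair of libraries per mark, and an exact permutation test of 2 values against 2 cannot give a two-sided p under 0.3333, so no p-values are given. Instead, each log2 ratio of replicate 2 to replicate 1 was set against the same ratio over all joint regions, with a 95% interval that covers counting error alone. Over all 16098 joint H3K4me3 regions this ratio had a median of 0.15 and an SD of 0.31, and over all 35266 H3K27ac regions a median of -0.03 and an SD of 0.16. In tissue of mixed cells, fewer cells with a mark and less of the mark per cell cannot be told apart.

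By tag density, the strongest H3K4me3 region inside the sweep region in both libraries was the one with both active marks, from 50498905 to 50501542 (2638 bp). It held 559 tags in replicate 1 and 908 in replicate 2, at 64.2-fold and 76.86-fold over the input. Its tag density was 2.71 in replicate 1 and 3.14 in replicate 2, a mean of 2.92 ± 0.306 (SD, n = 2), above the median of all joint H3K4me3 regions in both libraries (2.50 and 2.75). The log2 ratio between the replicates was 0.21 (0.06 to 0.37), well within 1 SD of the median over all regions. The H3K27ac region around it ran from 50498786 to 50502095 (3310 bp) and held 384 tags in replicate 1 and 358 in replicate 2, at 29.13-fold and 27.18-fold. H3K27ac tag density there was 1.00 and 0.992, a mean of 0.998 ± 0.00869 (SD, n = 2), the closest match between replicates among the 6 H3K27ac regions of the window and slightly under the median over all H3K27ac regions (1.04 and 1.02). The highest points of the marks nearly coincided. H3K27ac had its summit at 50500115 in replicate 1 and at 50500125 in replicate 2, 10 bp apart, and the H3K4me3 summits lay 190 bp and 11 bp from them.

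Near the end of the sweep region, H3K4me3 was found in both libraries while H3K27ac was called in replicate 1 alone. The H3K4me3 region ran from 50641213 to 50646583 (5371 bp, and 12.7% of joint H3K4me3 regions were at least as long), with 935 tags at 56.37-fold in replicate 1 and 1590 tags at 83.33-fold in replicate 2. Its tag density was 2.36 and 2.70, a mean of 2.53 ± 0.244 (SD, n = 2). The log2 ratio of 0.20 (0.08 to 0.32) was within 1 SD of the median. In replicate 1, an H3K27ac peak from 50635682 to 50645281 held 1517 tags at 31.55-fold (FDR 3.88%), and a smaller one from 50645467 to 50646914 held 202 tags at 29.05-fold (FDR 4.88%). Replicate 2 had no H3K27ac peak there at any FDR in its list, so neither entered the joint list. The larger peak was large for one without a partner. Of 11829 H3K27ac peaks of replicate 1 within the limit that no peak of replicate 2 overlapped, 176 (1.49%) held as many tags, and the median was 370 tags. By the authors' score of each peak, 755 (6.38%) were at least as high.

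The other 2 H3K4me3 regions of the sweep region lay near its start and had no H3K27ac peak in either library. From 50322401 to 50325009 (2609 bp), replicate 1 held 551 tags at 50.12-fold and replicate 2 held 449 tags at 44.05-fold. The tag density of 2.37 and 2.05 (mean 2.21 ± 0.228, SD, n = 2) was lower in replicate 2, with a log2 ratio of -0.21 (-0.39 to -0.03). This was the sole H3K4me3 region of the window whose ratio lay more than 1 SD from the median over all regions, and it was still inside the central 90% of them (-0.35 to 0.65). From 50348991 to 50352159 (3169 bp), 288 tags at 24.27-fold in replicate 1 and 507 tags at 38.83-fold in replicate 2 gave densities of 1.17 and 1.46 (mean 1.32 ± 0.203, SD, n = 2). By tag density this was the weakest H3K4me3 region of the window in both libraries, and 99.91% and 98.75% of joint H3K4me3 regions had a density at least as high. Past it, the sweep region held no joint H3K4me3 region for 146.7 kb, from 50352160 to 50498904.

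A pair of joint H3K27ac regions in the sweep region had no H3K4me3 peak of either library, the pattern by which the study separates enhancers from promoters. The first ran from 50424512 to 50427839 (3328 bp), with 475 tags at 25.82-fold in replicate 1 and 505 tags at 27.27-fold in replicate 2. Its densities of 1.14 and 1.04 (mean 1.09 ± 0.0689, SD, n = 2) gave a log2 ratio of -0.13 (-0.31 to 0.06). The other ran from 50607434 to 50610971 (3538 bp), with 624 tags at 22.0-fold in replicate 1 and 395 tags at 17.33-fold in replicate 2, and densities of 1.22 and 1.09 (mean 1.16 ± 0.0929, SD, n = 2; log2 ratio -0.16, -0.35 to 0.02). In each of them both libraries were above the median density of all H3K27ac regions, and the difference in density between replicates was within counting error. In the region from 50607434, replicate 2 held fewer tags in a shorter peak (2480 bp against 3538 bp). Density divides by that length, so it does not show the lower tag count.

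**Figure D2:**
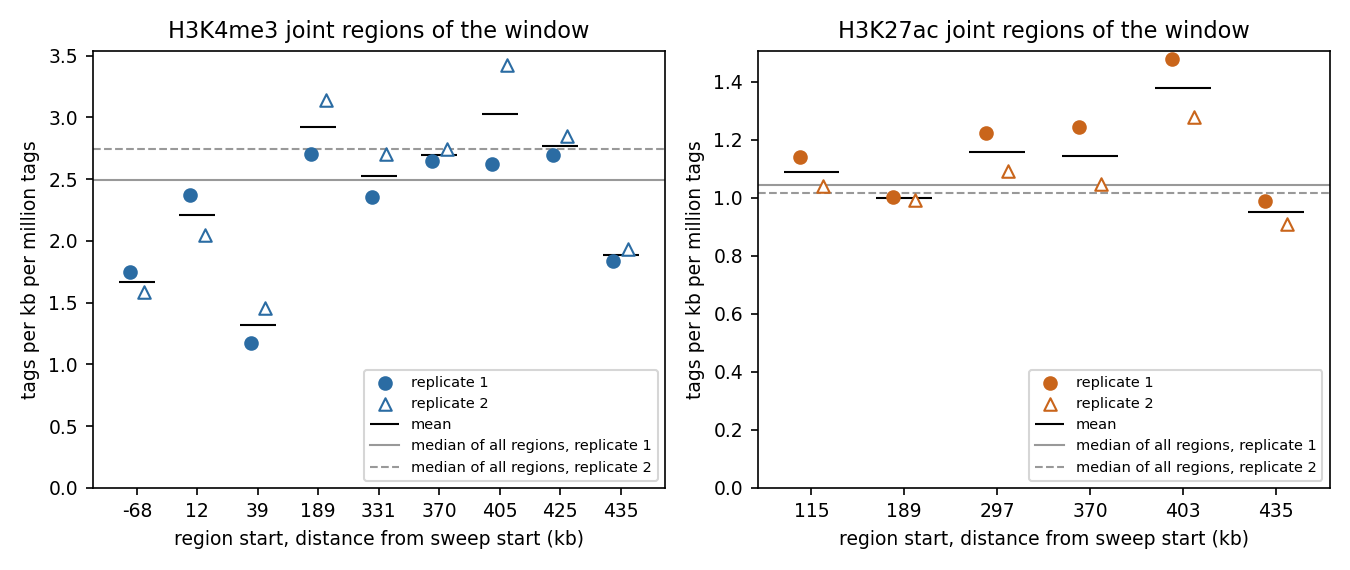
Tag density in tags per kb per 1000000 tags of each joint region of the window (left H3K4me3, right H3K27ac), ordered by the distance of its start from the start of the sweep region in kb. Points are the libraries, short bars their mean and grey lines the medians over all joint regions of the mark, and replicate 2 is the higher in 7 of 9 H3K4me3 regions and the lower in 6 of 6 H3K27ac regions.

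Past the end of the sweep region, the regions of highest mean tag density for both marks shared 1 place, 63.46 kb after the end. The H3K27ac region there ran from 50713464 to 50727664, and at 14201 bp it was the longest of the window (2.71% of all joint H3K27ac regions were at least as long). It held 3024 tags at 45.63-fold in replicate 1 and 2215 tags at 42.72-fold in replicate 2. Its densities of 1.48 and 1.28 (mean 1.38 ± 0.141, SD, n = 2) were reached by 1.497% and 6.995% of H3K27ac regions. The log2 ratio of -0.21 (-0.29 to -0.13) was beyond counting error and more than 1 SD below the median over all regions.

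Within this acetylated stretch lay the H3K4me3 region from 50714882 to 50717292 (2411 bp), with 565 tags at 67.33-fold in replicate 1 and 849 tags at 100.32-fold in replicate 2. These were the highest H3K4me3 fold enrichments of the window in both libraries. The density was 2.62 in replicate 1 and 3.43 in replicate 2 (mean 3.03 ± 0.568, SD, n = 2), and the log2 ratio of 0.39 (0.23 to 0.54) was the largest of the window and within 1 SD of the median. H3K27ac summits of the replicates were 16 bp apart, and the H3K4me3 summits lay 502 bp and 22 bp from them. A second, weaker H3K4me3 peak in the same acetylated stretch was called in both libraries, from 50720957 to 50722358, with 113 tags (FDR 3.9%) and 198 tags (FDR 2.82%), and missed the joint list.

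The other H3K4me3 regions of that flank differed in their acetylation. From 50679635 to 50685870 (6236 bp), 29.64 kb past the sweep region, H3K4me3 held 1532 tags at 57.65-fold and 1689 tags at 63.65-fold, with densities of 2.65 and 2.75 (mean 2.70 ± 0.0705, SD, n = 2). It shared 5959 bp with an H3K27ac region from 50679912 to 50687257, which held 1315 tags at 32.68-fold in replicate 1 and 1066 tags at 23.69-fold in replicate 2. H3K4me3 there was level between the replicates (log2 ratio 0.05, -0.05 to 0.15). H3K27ac was lower in replicate 2, with a density of 1.05 against 1.24 (log2 ratio -0.25, -0.37 to -0.13), more than 1 SD from the median ratio.

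A short H3K4me3 region from 50734824 to 50735797 (974 bp; 98.29% of joint regions were at least as long) held 233 tags at 60.3-fold and 303 tags at 74.77-fold, with densities of 2.69 and 2.85. Its summits were 6 bp apart between the libraries. As at the end of the sweep region, H3K27ac was called over it in replicate 1 alone (179 tags, 27.18-fold, FDR 5.11%). The last H3K4me3 region, from 50745214 to 50749400 (4187 bp), held 691 tags at 45.75-fold and 576 tags at 52.66-fold, with densities of 1.84 and 1.93 and summits 2 bp apart. The H3K27ac region around it ran past the edge of the window, from 50744638 to 50751461 (6824 bp). Replicate 1 held 971 H3K27ac tags at 22.57-fold over all of it and replicate 2 held 210 tags at 22.27-fold in a peak of 1583 bp, and their summits were 4450 bp apart. The acetylated stretch was thus far shorter in replicate 2.

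Before the sweep region, 1 place carried H3K4me3 together with the repressive mark H3K27me3 and lacked H3K27ac. The H3K4me3 region from 50242279 to 50249268 was the longest of that mark in the window (6990 bp) and ended 60.73 kb before the sweep region. It held 977 tags in replicate 1 at 28.26-fold. Replicate 2 held 1174 tags in a pair of peaks, 367 tags at an FDR of 3.68% and 807 tags at 34.24-fold and an FDR of 0.47%. Its density of 1.75 and 1.58 (mean 1.67 ± 0.116, SD, n = 2; log2 ratio -0.14, -0.27 to -0.02) was low for its mark, and 90.4% and 96.91% of joint H3K4me3 regions were at least as dense. In replicate 2 the peak within the limit had a density of 1.85, above that of replicate 1, and the other had 1.21. The lower value of replicate 2 thus rests on the peak above the limit. An H3K27me3 region from 50240732 to 50244871 (4140 bp) shared 2593 bp with it, and another from 50245026 to 50247218 (2193 bp) lay wholly inside it. The list gives no H3K27me3 tags, so the level of that mark is not known.

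The H3K27me3 region of the sweep region, from 50474613 to 50476016 (1404 bp), overlapped no joint region of another mark. In replicate 1 alone an H3K4me3 peak overlapped it, from 50474642 to 50475994, with 166 tags at 19.23-fold and an FDR of 2.02%. No joint H3K27me3 region lay in the flank after the sweep region.

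Counted over the window, 4 of 9 H3K4me3 regions overlapped a joint H3K27ac region, against 55.2% of all joint H3K4me3 regions. Of the other 5, 3 had no H3K27ac peak of either library (23.1% of all joint H3K4me3 regions) and 2 had H3K27ac peaks of replicate 1 alone. The share with peaks of replicate 1 alone was not computed over all joint H3K4me3 regions, so whether that count is unusual is not known. H3K27me3 overlapped 1 of 9 (16.3% of all, and 12.9% on the autosomes). In the other direction, 4 of 6 H3K27ac regions overlapped H3K4me3 (24.9% of all joint H3K27ac regions), none overlapped H3K27me3 (2.61%), and 2 of 3 H3K27me3 regions overlapped H3K4me3 (9.64% of all, and 14.6% on the autosomes). With 3 to 9 regions a mark, these counts are a description of the window.

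Between the animals, the regions of the marks leaned in opposite directions. H3K4me3 density was higher in replicate 2 in 7 of 9 regions, near the share of 69.9% over all joint H3K4me3 regions. The lower density of replicate 2 in the region before the sweep region rests on a peak above the FDR limit. H3K27ac density was lower in replicate 2 in 6 of 6 regions, against 58.4% over all joint H3K27ac regions, with a median log2 ratio of -0.15. All 15 ratios were inside the central 90% of their mark, and 8 of 9 H3K4me3 and 4 of 6 H3K27ac ratios lay within 1 SD of the median. Each density uses the library's own peak length, so a shorter peak in 1 library does not show in the ratio. In the H3K27ac region from 50744638, replicate 2 held 210 tags against 971, with a log2 ratio of -0.12.

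Of the 55 peaks of single libraries, 24 overlapped no joint region of their mark. For H3K4me3 these were 8 of 17 peaks of replicate 1 (47.1%, against 64.5% of all its peaks) and 10 of 20 of replicate 2 (50.0%, against 72.1%). For H3K27ac they were 5 of 11 peaks of replicate 1 (45.5%, against 27.7%) and 1 of 7 of replicate 2 (14.3%, against 23.9%). No peak of the other library overlapped 3 of the 17 and 5 of the 20 H3K4me3 peaks (23.6% and 38.8% of all) and 5 of the 11 and 1 of the 7 H3K27ac peaks (23.2% and 19.1% of all). Among the H3K4me3 peaks outside the joint list, 7 of 8 and 9 of 10 were above the FDR limit of 1%, against 80.1% and 94.3% of all such peaks of replicates 1 and 2. All 6 H3K27ac peaks outside the joint list were within their limit of 10% and had no peak in the other library, against 83.8% and 79.4% of all such peaks. Among peaks outside the joint list, the window was thus near the whole lists in the shares above and within the limit. The shares of peaks outside the joint list differed more. They were lower than in the whole lists for H3K4me3 in both libraries and for H3K27ac in replicate 2, and higher for H3K27ac in replicate 1.

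**Figure D3:**
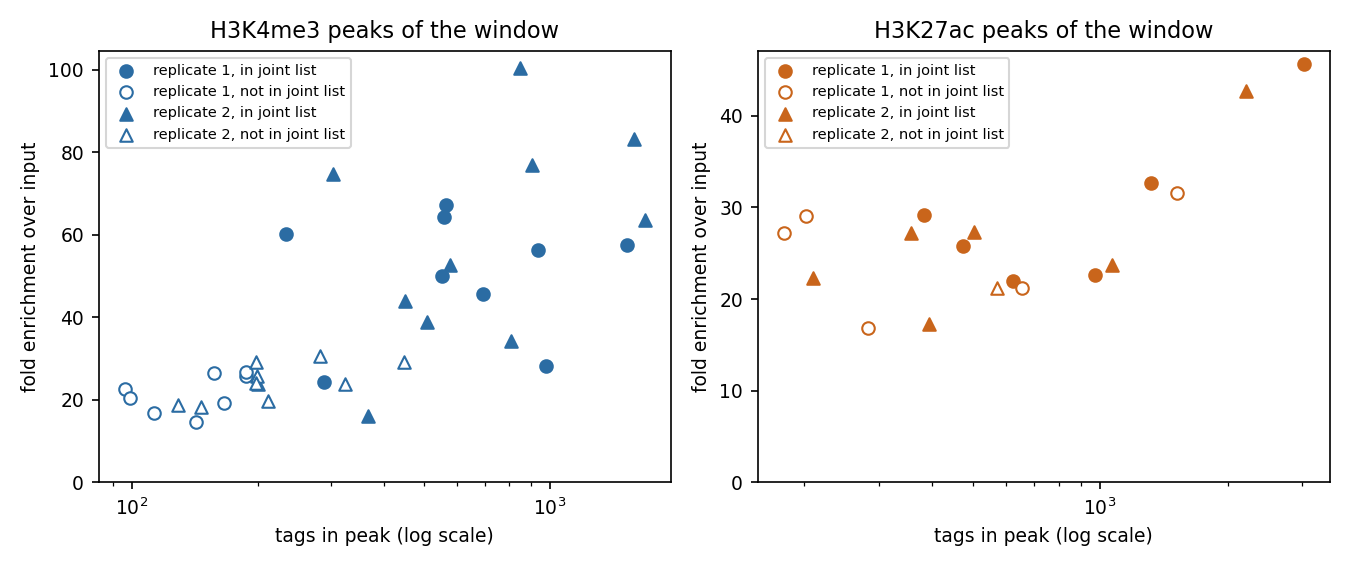
Fold enrichment over the input against tags per peak (log scale) for each peak of the window (left H3K4me3, right H3K27ac), with circles for replicate 1, triangles for replicate 2 and open symbols for peaks in no joint region. Open H3K4me3 symbols lie at 30.74-fold or lower, where 3 filled ones lie too, and the open H3K27ac symbols span 16.79-fold to 31.55-fold.

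The H3K4me3 peaks outside the joint list fell at 13 positions, 8 of them in the sweep region, and 5 positions had a peak in both libraries. The missing peaks were weak, at 14.61-fold to 26.88-fold with 96 to 187 tags in replicate 1 and 18.31-fold to 30.74-fold with 129 to 448 tags in replicate 2. Peaks in the joint list had 24.27-fold to 67.33-fold with 233 to 1532 tags in replicate 1, and 16.2-fold to 100.32-fold with 303 to 1689 tags in replicate 2. The ranges thus overlapped in both libraries for fold enrichment, and in replicate 2 for tags.

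At 2 positions 1 library passed the limit and the other did not. From 50732262 to 50734621, replicate 1 held 187 tags at an FDR of 0.98% and replicate 2 held 323 tags at 1.96%. From 50364859 to 50367760, inside the sweep region, replicate 2 held 448 tags at 0.89% and replicate 1 held 96 tags at 3.12%. The other 3 positions called in both libraries exceeded the limit in both. From 50524987 to 50526787 in the sweep region there were 187 tags (FDR 1.24%) and 282 tags (FDR 1.51%). From 50302843 to 50304237, 5.764 kb before the sweep region, there were 157 tags (FDR 1.49%) and 200 tags (FDR 2.97%), and the remaining one is the second peak in the long acetylated stretch.

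H3K4me3 was called in replicate 1 alone at 3 positions, all in the sweep region, with 99 to 166 tags and FDRs of 2.02% to 4.43%. It was called in replicate 2 alone at 5 positions, with 129 to 211 tags and FDRs of 2.1% to 5.67%. The one of these with the most tags, from 50635872 to 50637327 in replicate 2, lay under the large H3K27ac peak of replicate 1, so each animal had 1 mark called there that the other lacked.

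H3K27ac outside the joint list fell at 6 positions, 4 of them in the sweep region. Beside the 3 peaks described above, replicate 1 had peaks from 50310448 to 50315140, at the very start of the sweep region (655 tags, 21.25-fold, FDR 4.79%), and from 50462718 to 50464754 (283 tags, 16.79-fold, FDR 5.9%). Replicate 2 had 1 peak, from 50301250 to 50305398, with 572 tags at 21.17-fold (FDR 4.95%), over the H3K4me3 position called in both libraries before the sweep region. Hence all of the joint list's H3K27ac in the window began at 50424512, and the 214.5 kb before it, which held 3 H3K4me3 regions, had H3K27ac peaks of single libraries alone. With 1 library per animal, whether these peaks mark a difference between the fetuses was not tested.

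Over the whole window, joint H3K4me3 regions covered 6.41% of bases, against 2.26% of chromosome 13 and 2.06% of the autosomes. The share was 6.99% in the flank before the sweep region, 4.06% in the sweep region and 13.8% in the flank after it. H3K27ac covered 6.87% of the window, against 9.52% of chromosome 13 and 7.47% of the autosomes, with 0% in the flank before, 2.99% in the sweep region and 26.9% in the flank after. H3K27me3 covered 6.33% of the flank before and 0.413% of the sweep region, against 2.85% of chromosome 13 and 1.97% of the autosomes.

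**Figure D4:**
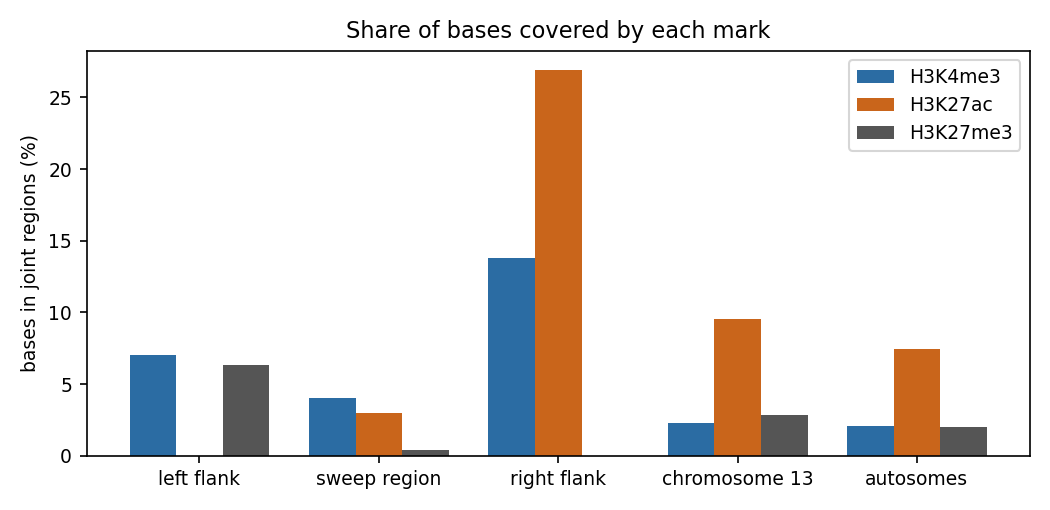
Share of bases in joint regions, in percent, for each mark in the flanks and the sweep region, on chromosome 13 and on the autosomes, with 1 bar per mark and place and no error, since a share is a single value. H3K27ac goes from 0% before the sweep region to 26.9% after it, and H3K27me3 from 6.33% to 0%.

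The PANK2 sweep region was set beside the other regions of the study's list of 635 sweep regions, of which 2 are longer and whose median length is 20000 bp. With 4 H3K4me3 regions it was among 4 sweep regions with that many, and 504 (79.4%) had none. Per length it held 1.18 H3K4me3 regions per 100 kb against 0.849 in the others pooled, and 123 sweep regions had as many per 100 kb. In a sweep region of the median length 1 H3K4me3 region exceeds that number. The count of 123 thus mostly reflects how many sweep regions hold any H3K4me3 region. For H3K27ac, 50 sweep regions had 3 or more regions and 392 (61.7%) had none. Per length, the PANK2 sweep region held 0.882 H3K27ac regions per 100 kb against 1.99 in the others pooled, and 2.99% of its bases were covered against 9.45%. Of the 635 sweep regions, 241 reached its number per 100 kb and 232 its share of bases. It was thus below the pooled level, and nearly all sweep regions with any H3K27ac region reached its number per 100 kb. Those under it nearly all held no H3K27ac region. For H3K27me3, its 1 region gave 0.294 per 100 kb against 0.717 in the others pooled, while 564 sweep regions (88.8%) had none and 71 had 1 or more. All 71 reached its number per 100 kb, for which 1 region is enough in any sweep region no longer than this one.

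In windows of 20 kb with a step of 10 kb, 9 of the 31 windows of the sweep region overlapped a joint H3K4me3 region (29.0%), against 14.1% of the windows in other sweep regions and 11.4% of all windows. For H3K27ac, 7 of 31 did (22.6%), against 30.4% in other sweep regions and 24.4% of all windows. For H3K27me3, 2 of 31 did (6.45%), against 8.22% and 12.8%. The 12.8% is over the whole genome, where H3K27me3 covered 4.979% of bases, against 1.97% on the autosomes. A share over autosomal windows alone was not computed. Neighbouring windows share bases, so these shares carry no test. The sweep region was made of 2 runs of windows, and each held 2 H3K4me3 regions. The first, from 50310001 to 50430000, held 1 H3K27ac region, and the second, from 50440001 to 50650000, held 2 H3K27ac regions and the H3K27me3 region.

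**Figure D5:**
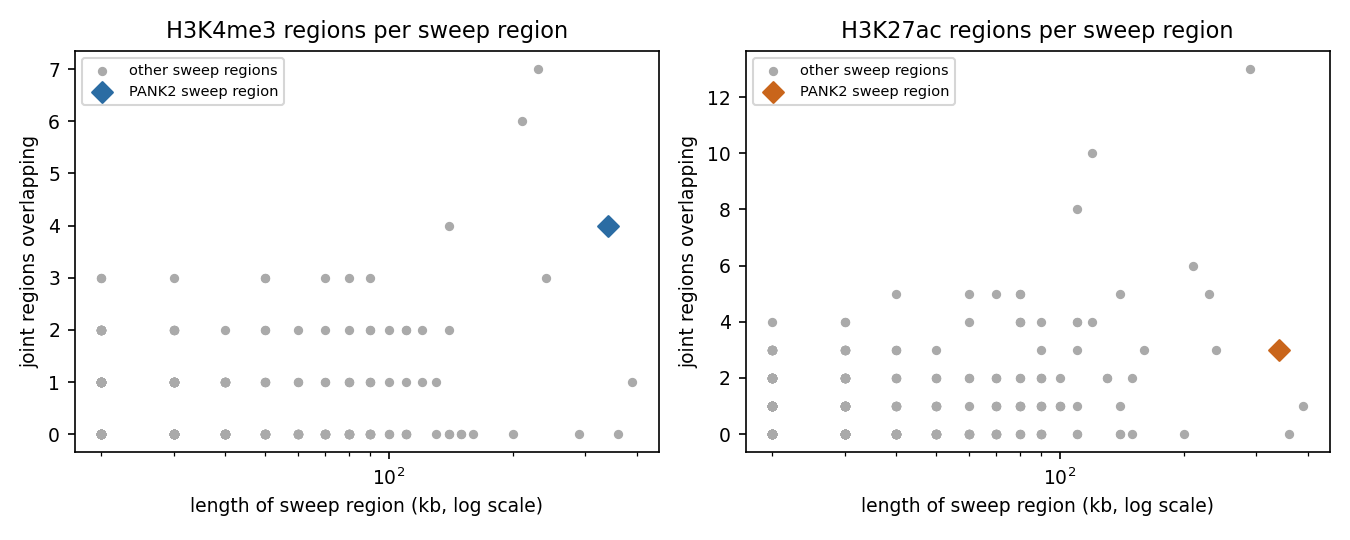
Number of joint regions overlapping each sweep region against its length in kb (log scale), for H3K4me3 on the left and H3K27ac on the right. Each grey point stands for 1 or more of the other sweep regions and the diamond is the PANK2 sweep region, which holds 4 H3K4me3 and 3 H3K27ac regions and is exceeded in length by 2 others.

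The comparison took the 112 sweep regions with at least 1 gene and at least 1 peak of both marks in every library. Likeness was measured as the Euclidean distance between log2 values of the highest fold enrichment in each of the 4 libraries. The PANK2 sweep region reached 64.2-fold and 83.33-fold for H3K4me3 and 31.55-fold and 27.27-fold for H3K27ac in replicates 1 and 2. The medians over the others were 55.59-fold, 71.2-fold, 32.52-fold and 30.45-fold, so its H3K4me3 was above the middle in both animals and its H3K27ac below it. Each value is a maximum over a whole sweep region, was not adjusted for length, and longer regions offer more places for it. In the PANK2 sweep region the maxima came from different places, and the 31.55-fold peak of replicate 1 was outside the joint list. Nearest was the sweep region with DYRK1B, FBL and FCGBP on chromosome 14, from 48520001 to 48550000, at a distance of 0.12, where DYRK1B is a kinase and FBL the nucleolar methyltransferase fibrillarin. Next came the one with H2AFZ, a histone H2A variant, and DNAJB14, a co-chaperone, on chromosome 6 from 24710001 to 24850000 (0.16), and one on chromosome 17 from 61930001 to 61960000 (0.19) with a gene known by its identifier ENSOARG00000010650. The median distance over all others was 0.73. With either animal left out, 1 of these 3 stayed among the nearest 3.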

How the data were processed

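The authors mapped ChIP-Seq reads of perirenal fat to Oar_v3.1 and called peaks per library with MACS 1.4.2 against pooled fetal input. Per the file headers, the deposited lists give for each peak its position, the count of tags, a score on a −log10 p-value scale, the FDR in percent and the fold enrichment over input, a linear ratio. Deposited joint lists hold positions. Peaks that overlapped between replicates, merged with an FDR limit of 1%, rebuilt 16098 of 16098 joint H3K4me3 regions, and a limit of 10% rebuilt 35265 of 35266 H3K27ac regions. Duplicates were 27.1% and 29.5% of H3K4me3 tags and 18.7% and 16.8% of H3K27ac tags. The input had 0.183 to 0.287 tags per tag of a library, so fold and FDR rest on few input tags.

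Members overlapped the window by at least 1 bp. Tag density used each library's own peaks, intervals were exact binomial intervals of the tag counts (95%), and region ratios were compared with those over all joint regions. Sweep positions and gene names came from the study's supplementary lists. Named genes were PANK2, RNF24 and the genes of the 3 sweep regions nearest in profile. Members and lists were chosen with earlier results of these data known. The lists of markers and of genes for coenzyme A synthesis and brain iron accumulation were not described, since gene positions on Oar_v3.1 were not used here. 2 files of H3K27me3 values, which no sample label covers, were not used. Alternatives changed the window, FDR limit, overlap rule, scaling and libraries. Overlap code was tested on simulated data. The scripts ran under Python 3.11.15 with scipy 1.17.1, pandas 2.3.3 and numpy 2.4.6, and figures were drawn with matplotlib 3.10.9.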

Additional observations from a re-analysis of the deposited data

How the results depend on the processing

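Counts and shares of the window depended on its width and on the FDR limit, and 2 of the H3K27ac counts on replicate 2. The sweep region alone, and with 50 kb on each side where that moved the value, gave 4 and 5 joint H3K4me3 regions in place of 9, 3 H3K27ac regions in place of 6, and 1 and 1 H3K27me3 region in place of 3. Peaks of single libraries went from 17 to 9 and 11 and from 20 to 9 and 12 for H3K4me3 in replicates 1 and 2, and from 11 to 7 and from 7 to 3 for H3K27ac in the sweep region alone. Bases covered went from 6.41% to 4.06% for H3K4me3, from 6.87% to 2.99% and 3.98% for H3K27ac, and from 1.43% to 0.413% and 0.319% for H3K27me3. Without an FDR limit there were 14 H3K4me3 regions, and at 0.1%, the limit in the study's methods, there were 0. At 5% there were 2 H3K27ac regions. The FDR did not rank H3K27ac regions by strength there. The region from 50713464, the longest and densest of its mark in the window, was dropped at FDRs of 4.79% and 5.03%. For H3K27ac the methods state 1%, and the lowest FDR of an H3K27ac peak in the window was 3.88%. Within the limit, 10 H3K4me3 peaks were left in each library. Peaks with no partner in the other library were 3 in place of 8 and 5 in place of 10 for H3K4me3.

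With 1 library alone there were 10 H3K4me3 regions in either and 7 to 11 H3K27ac regions, and 3 to 4 H3K27ac regions without H3K4me3 in place of 2. The values of 11 and 4 came without replicate 2, and no count or share of the window moved without replicate 1. Alternatives with 1 library, chosen after seeing the data, gave 5.86% to 6.02% of bases for H3K4me3, 6.09% to 10.2% for H3K27ac, and highest densities of 2.71 to 3.43 (3.07 as the mean over libraries) and 1.28 to 1.48 (1.38). For H3K4me3 the highest densities of the libraries lay in different regions, so 3.07 is not the density of 1 region. Either animal alone kept 1 of the 3 sweep regions of nearest profile. Per 1000000 of all tags these densities were 2.19 and 1.13. The log2 ratio of the region of highest mean density was also taken relative to the median ratio over all joint regions of its mark. It was then 0.23 for H3K4me3 (0.39 as measured) and -0.18 for H3K27ac (-0.21 as measured). The pairing of the libraries comes from the animals in the labels, and no test was run. In all, 29 values moved by more than the spread between replicates or, for counts, by over 1.5 times, and 32 did not. Weak peaks near the FDR limit rest on few input tags at this depth.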
